A study of Strophostyles helvola with 12 samples.

Results

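In the roots of sand bean (Strophostyles helvola), 275 of 27191 genes were induced by salt to a similar extent in a Beach and an Inland genotype. The Beach plants received 400 mM NaCl and the Inland plants 200 mM, and the study guided each dose by the lethal limit of that genotype. The genes were selected on the measured values themselves. For each gene, CPM (the counts of a gene scaled to a fixed library total) were averaged within each group and 0.5 was added to each mean. A gene was included when its treatment mean was at least 2 times the control mean in both genotypes and the Beach response differed from the Inland response by no more than 1.5-fold. Its higher control mean had to reach 1.5 and its highest group mean 5, the mean of the 4 groups had to stay below 800, and the genotypes' control means had to lie within 8-fold of each other. The response of each genotype, the ratio of the responses and, in part, the ratio of the controls were therefore used in the choice, and they are described here with their errors and not as evidence.

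Salt in the soil reaches a root as a loss of available water and, with time, as an excess of sodium and chloride ions inside its cells. Plants are known to answer the first through abscisic acid signalling and the synthesis of protective proteins and compatible solutes, and the second by exporting sodium or storing it in vacuoles. Beach plants of this kind live with salt spray and brackish soil, and the transcripts that both a tolerant and a sensitive plant raise are of interest as the shared portion of the response.

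The 12 libraries came from whole roots of seedlings grown in potting mix, with 3 biological replicates in each of 4 groups. Beach plants, collected at a beach in North Carolina, were given water (Beach control) or 400 mM NaCl (Beach treatment), and Inland plants, from Missouri, were given water (Inland control) or 200 mM NaCl (Inland treatment). All received 50 mL per day, and seedlings were 10 d old when the treatment was given. Each replicate combined equal amounts of root from 3 h, 24 h and 7 d after the final NaCl concentration was reached, so a value averages over these times. Each genotype stands for 1 collection site, and genotype is inseparable from dose, so they cannot be told apart when treated plants are compared. The study guided each dose by the lethal limit of its own genotype and kept it below that limit. Each library pooled 3 plants, 1 from each time. P-values set a difference against the spread between these libraries, and they do not cover the spread between single plants or between collection sites. Libraries held 29205979 to 41330498 counts. A CPM is the share of a library's counts on a gene, so more RNA per cell and more cells expressing a gene cannot be told apart. The identifiers are those of common bean (Phaseolus vulgaris), to whose genome the reads of both genotypes were aligned. The table does not pair them with gene names, so the members are described by their identifiers and values and not by function, and the tissue could not be checked against root markers. RNA integrity, as listed by the study, was lower in every Beach treatment library than in every Beach control library, and its part in the results was not tested.

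Within the stated limits of level, 440 genes reached 2-fold in both genotypes. Of these, the 275 with similar responses made up 62.5%, another 148 had a Beach response more than 1.5 times the Inland one, and 17 had an Inland response more than 1.5 times the Beach one. Among the 275, the median response was 2.91-fold in Beach (range 2.004 to 47.3) and 2.66-fold in Inland (range 2.003 to 37.1). The median level went from 9.81 to 34.0 CPM in Beach and from 8.18 to 28.1 CPM in Inland. Most members responded moderately. By the smaller of their 2 responses, 199 lay between 2- and 3-fold, 51 between 3- and 5-fold, 17 between 5- and 10-fold, and 8 at 10-fold or more. Together the members took 0.885% ± 0.0823 of all counts in Beach plants without salt and 2.60% ± 0.154 with it (SD, n = 3). In Inland plants their share went from 0.721% ± 0.0148 to 2.03% ± 0.0443 (SD, n = 3).

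**Figure D1:**
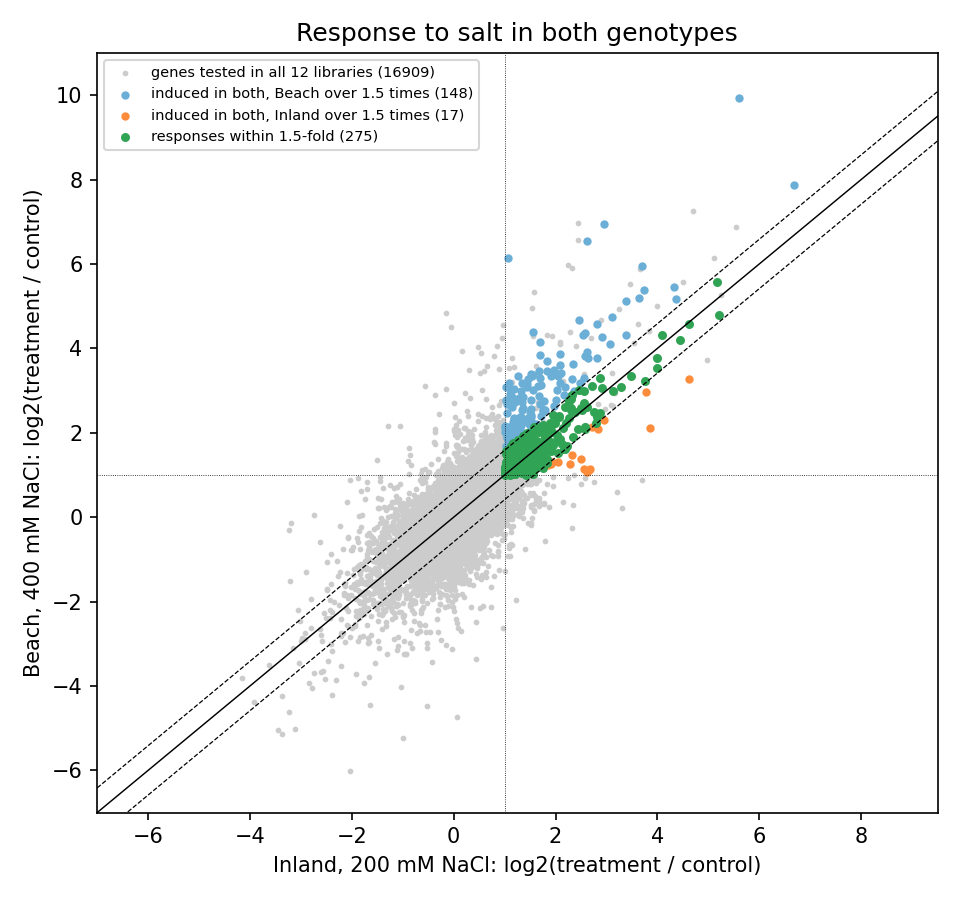
Response of each gene to salt, as the log2 ratio of the treatment to the control mean (CPM + 0.5), in Inland (horizontal axis, 200 mM) and Beach (vertical axis, 400 mM), for 16909 genes above 5 CPM in at least 3 libraries (grey) and for the genes induced at least 2-fold in both genotypes (colours). The solid line marks equal responses and the dashed lines a 1.5-fold difference; the 275 members (green) lie between the dashed lines by construction, with 148 genes above the band and 17 below it.

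In 272 members every Beach treatment library was above every Beach control library, in 271 the same held in Inland, and in 270 in both. Such a separation was seen for 27.2% of all genes tested in Beach and 35.4% of those tested in Inland. The share of all genes separated in both is not given here, so the joint count has no share to be set beside. A gene was called where edgeR's quasi-likelihood test gave an fdr (false discovery rate) no higher than 0.05 and the fitted change was 2-fold or more. By this measure 257 of the 258 members above the filter on low counts (5 CPM in at least 3 libraries) were called higher with salt in Beach, where 6.75% of all genes tested were called. In Inland 229 of 245 members were called higher, against 3.38% of all genes, and 225 members were called in both genotypes, against 2.38% of genes tested in both. These shares follow from the rule and are given only to show how it relates to a test with replicates. In Inland 242 members passed the fdr, so most of those not called missed the fold change, which the fit took after normalization by TMM (trimmed mean of M values, a scaling between libraries).

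The 8 members with the largest responses in both genotypes, among the 237 with at least 10 counts in every library and no overlap in either genotype that were tested in both, are shown first because they span the widest range of the set. Phvul.009G027600 had 1.93, 2.92 and 1.78 CPM in the Beach control libraries and 136, 135 and 112 in Beach treatment. Its Inland control libraries held 1.82, 1.15 and 2.84 CPM and its Inland treatment libraries 94.4, 68.2 and 99.5. Control libraries of the genotypes overlapped at a low level, and all treated Beach libraries were above all treated Inland libraries. The fitted log2 fold change was 5.87 (standard error, SE, 0.19) in Beach and 5.39 (SE 0.30) in Inland, the largest pair among these 8, with a difference of 0.49 (95% interval -0.36 to 1.34).

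Phvul.007G231800 stood at 4.598, 8.83 and 6.57 CPM in Beach control and at 198, 227 and 171 in Beach treatment. In Inland it stood at 5.90, 4.68 and 4.32 CPM in control and 195, 194 and 217 in treatment. The treated libraries of the genotypes overlapped, at means of 198 ± 27.7 CPM in Beach and 202 ± 13.0 in Inland (SD, n = 3). The difference of its log2 fold changes, Beach minus Inland, was -0.35 (95% interval -0.96 to 0.27). The levels thus overlapped with 200 mM in Inland plants and 400 mM in Beach plants, each dose guided by the tolerance of its genotype.

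Phvul.009G162900 had 0.590, 4.57 and 4.13 CPM in Beach control and 102, 82.0 and 70.9 in Beach treatment. Its Inland values were 1.23, 4.14 and 3.503 CPM in control and 82.5, 67.3 and 104 in treatment. The 4 group means paired closely, at 3.10 and 2.96 CPM in the controls and 85.1 and 84.8 in the treated groups. Replicate 1 was the low one of both control groups, and the interval of the difference, -1.51 to 1.64 on the log2 scale, was wide. It was 1 of the 2 members with the widest spread within a group.

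Phvul.005G130900 also had nearly equal treated means, but its treated libraries were scattered. They held 38.6, 52.7 and 135 CPM in Beach and 21.9, 118 and 71.9 CPM in Inland, against 2.33, 6.13 and 2.44 in Beach control and 3.73, 1.36 and 3.25 in Inland control. Treated and control libraries did not overlap in either genotype, while the treated libraries of each genotype were far apart. The interval of the difference of responses, -2.32 to 1.95 on the log2 scale, says little about whether they were equal.

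Of the other 4 strongly responding members, 2 kept an offset between the genotypes. Phvul.008G219800 had 10.5, 8.29 and 7.10 CPM in Beach plants given water and 188, 196 and 157 with salt, and 2.38, 3.73 and 3.99 in Inland plants given water and 62.2, 88.2 and 44.7 with salt. All Beach libraries were above the matching Inland libraries, with control means 2.36-fold apart (after adding 0.5), and the fitted responses were 4.41 (SE 0.15) in Beach and 4.19 (SE 0.31) in Inland on the log2 scale. Phvul.007G130100 went from 2.47 ± 1.77 to 40.2 ± 8.30 CPM in Beach and from 0.444 ± 0.0817 to 14.5 ± 1.43 in Inland (SD, n = 3). The rule put the ratio of its responses at 0.864, but the fit, which does not add 0.5 to the means, put the log2 fold change at 4.05 (SE 0.42) in Beach and 4.93 (SE 0.18) in Inland. Phvul.006G075000 went from 16.0 ± 3.42 to 192 ± 22.7 CPM in Beach and from 9.29 ± 1.51 to 155 ± 32.1 in Inland, and Phvul.006G186600 from 3.01 ± 1.06 to 32.2 ± 1.96 and from 1.72 ± 0.311 to 29.5 ± 3.66. In both, Inland controls were the lower ones while treated libraries of the genotypes overlapped.

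**Figure D2:**
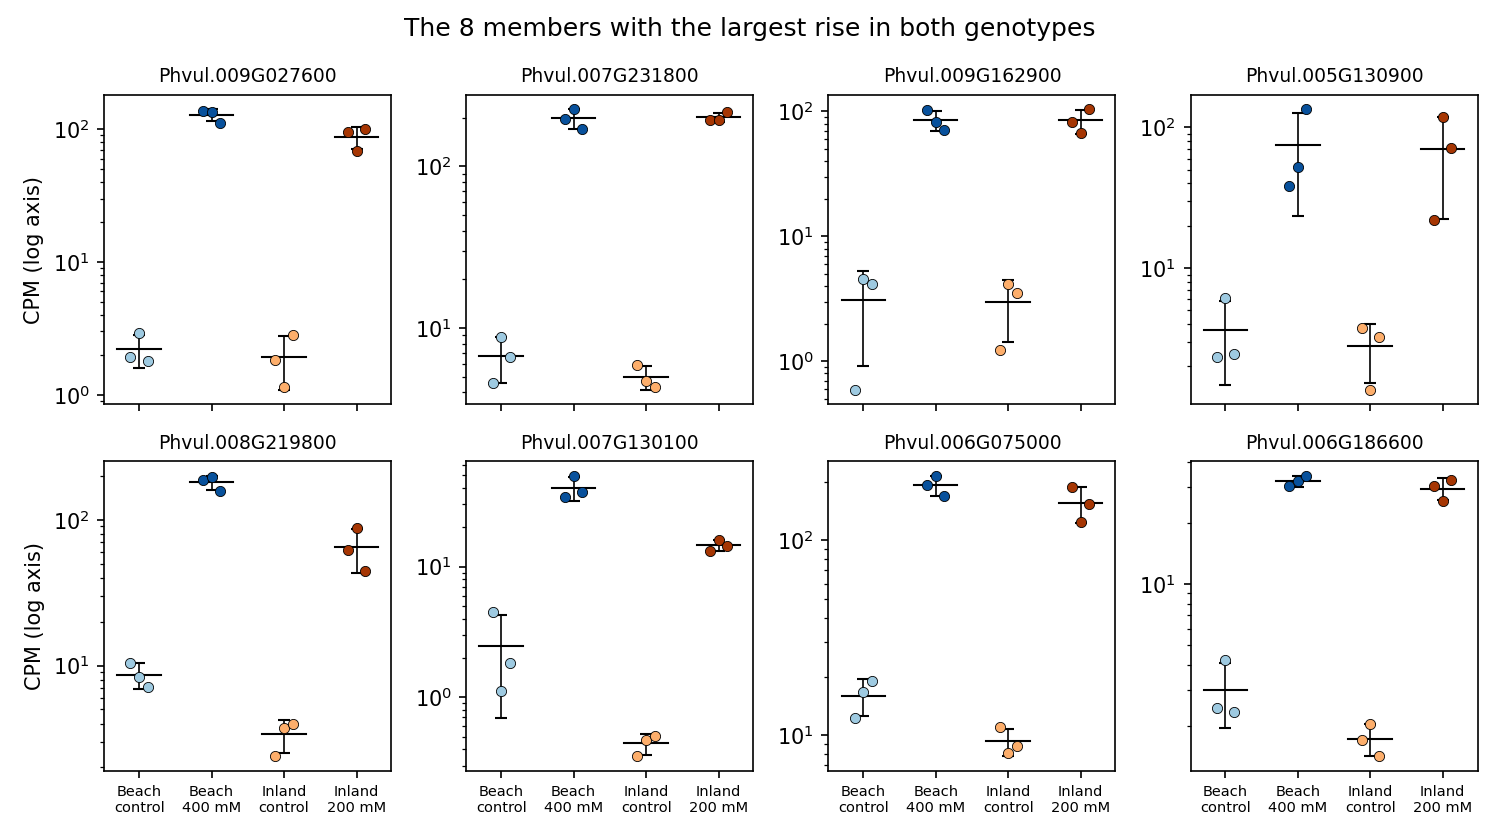
CPM (log axis, a scale of its own in each panel) of the 8 members with the largest smaller-of-both responses, in each library (points), with the mean and SD of each group of 3 libraries (bars). Control and treated libraries are apart in every panel; Phvul.007G231800 and Phvul.009G162900 reach nearly the same level in both treated groups, while Phvul.008G219800 and Phvul.007G130100 are lower in Inland with and without salt.

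The most abundant members responded less. The 6 with the highest mean over the 4 groups had control means of 169 to 499 CPM and responses of 2.03- to 5.86-fold. Phvul.005G034800 went from 427, 432 and 450 CPM to 1355, 1400 and 1292 in Beach and from 429, 387 and 364 CPM to 857, 988 and 993 in Inland. Its controls overlapped and its treated Beach libraries were all above its treated Inland libraries. With an SE of 0.12, the difference of its log2 fold changes was 0.47 (95% interval 0.21 to 0.73), which does not hold 0, for responses of 3.09-fold and 2.40-fold. Phvul.002G139200 was the strongest responder among them, from 236, 273 and 236 CPM to 1465, 1658 and 1252 in Beach and from 136, 183 and 188 CPM to 1192, 602 and 1125 in Inland. Inland treatment replicate 2 was far below the other two. Its responses were 5.86-fold and 5.74-fold.

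Phvul.002G090900 was the one of these 6 closest to equal levels throughout, with group means of 442 ± 91.2 CPM (Beach) and 430 ± 33.6 (Inland) with water, and 895 ± 29.03 (Beach) and 920 ± 108 (Inland) with salt (SD, n = 3). Phvul.008G101800 was the reverse of the usual order, since Inland was higher in both conditions, at 499 ± 29.7 against 343 ± 61.3 CPM in the controls and 1062 ± 196 against 801 ± 18.1 CPM in the treated groups. Phvul.009G133200 went from 335 ± 24.5 to 810 ± 41.1 CPM in Beach and from 237 ± 45.7 to 698 ± 159 in Inland. Phvul.003G152200 went from 304 ± 104 to 786 ± 83.2 CPM in Beach and from 177 ± 10.4 to 632 ± 61.2 in Inland, and Beach control replicate 1 (424 CPM) was far above the other two (252 and 237 CPM). These genes were near the upper limit of level that the rule allows.

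A ratio of responses near 1 did not by itself mean a precise one. The 4 members whose ratio was nearest 1, all between 0.999 and 1.002, were Phvul.002G170200, Phvul.001G173300, Phvul.001G209500 and Phvul.009G242300. Phvul.009G242300 was measured with little spread, from 9.26, 6.89 and 7.92 CPM to 17.6, 20.7 and 16.1 in Beach and from 5.58, 5.83 and 6.55 CPM to 14.1, 12.7 and 14.1 in Inland. Its difference of log2 fold changes had a 95% interval of -0.31 to 0.51, within 1.5-fold either way. Phvul.002G170200, at 6.14-fold in both genotypes, had an interval of -0.54 to 0.71. For Phvul.001G173300 the interval was -1.40 to 1.31, and for Phvul.001G209500 it was -0.72 to 0.90, so a 2-fold difference lay inside the interval of the former. The Beach control libraries of both were scattered: Phvul.001G173300 had 13.5, 2.89 and 8.94 CPM in them, and Phvul.001G209500 had 22.9, 11.3 and 10.8.

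Over the 266 members that passed the filter across the 12 libraries (9 did not), the SE of the difference between the genotypes' log2 fold changes had a median of 0.24 (range 0.09 to 2.36), against a median of 0.17 for all genes tested. The 95% interval of the difference lay wholly within 1.5-fold for 49 members, which had a median SE of 0.16 and a median level of 37.0 CPM. Their median responses were 2.22-fold in Beach and 2.38-fold in Inland, against 2.91-fold and 2.66-fold in all 275. In the other 217 members, with a median SE of 0.27 and a median level of 19.95 CPM, the interval extended past 1.5-fold, and in 88 it extended past 2-fold. The interval held 0 in 222 members, lay above 0 (a larger response in Beach) in 37 and below 0 in 7. With library totals in place of TMM, the scaling the rule used, it lay above 0 in 20 and below 0 in 16, so the imbalance depended on the scaling. None of the 266 was called for a difference of responses by edgeR under the limits given above, where 4.94% of all genes were. DESeq2 called 1 member, against 1020 of 16909 genes. An unadjusted edgeR p under 0.05 was found in 44 members, and the share of all genes is not given for this limit. The rule's window on the ratio bears on these counts, and nothing is read from them. With an fdr of 0.05 as the only limit, 11 members passed, against 13.0% of all genes, all 11 with the larger response in Beach. With library totals 8 passed, against 16.0% of all genes, 3 of them with the larger response in Inland.

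**Figure D3:**
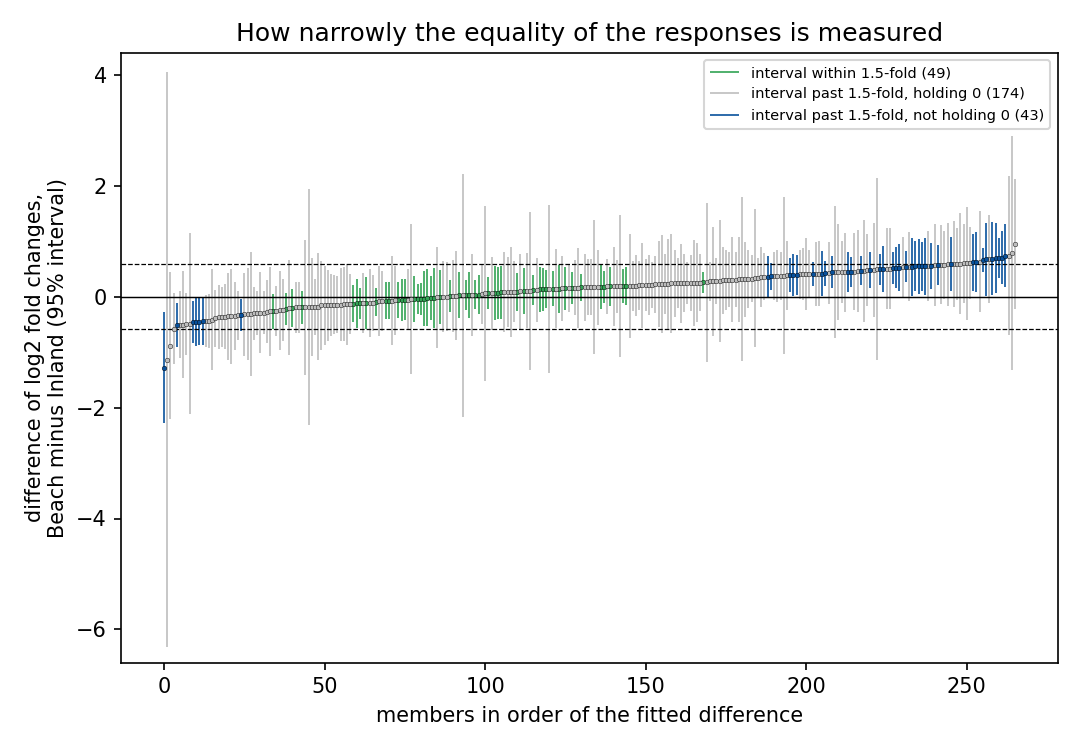
Difference of the log2 fold changes, Beach minus Inland (points), with its 95% interval from the edgeR fit (lines), for 266 members in order of the difference. Dashed lines mark 1.5-fold either way; 49 intervals (green) lie between them, and of the intervals that reach past 1.5-fold and do not hold 0 (blue) most lie on the Beach side after TMM, which was the scaling of this fit.

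In some members the fitted difference lay outside the window of the rule. The member that DESeq2 called for a difference of responses is named because of that value. Phvul.008G073100 went from 1.83, 1.37 and 0.924 CPM to 13.9, 17.8 and 14.6 in Beach and from 0.205, 0.178 and 0.279 CPM to 5.21, 8.63 and 5.86 in Inland. Its Inland control libraries held 7, 6 and 11 counts. With 0.5 added to each mean the ratio of responses was 0.867, while the fitted difference was -1.26 (SE 0.46, edgeR quasi-likelihood fdr = 0.0822), a larger response in Inland. With DESeq2 the difference was -1.27 (fdr = 0.0444), and with edgeR without Beach control replicate 3 it was -1.47 (fdr = 0.0489). The fitted difference lay outside 1.5-fold in 25 of the 266 members in all.

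The ratio of responses, on which the members were selected, is described without a test. The median ratio of responses was 1.05, and 165 members had the larger response in Beach against 110 in Inland. Over all 16909 genes the median log2 ratio of responses was -0.12 with library totals and -0.01 after TMM, a shift of 0.11 between these scalings. The members' median was 0.07 with library totals and 0.18 after TMM, and after TMM 188 members had the larger response in Beach. All genes were not selected on this ratio, so nothing is read from the gap. Without Beach control replicate 1 the number with the larger response in Beach was 183, and without Beach control replicate 3 it was 138. The number therefore changed with single control libraries. By strength of response, of the 8 members at 10-fold or more, 2 had the larger response in Beach, and of the 199 below 3-fold, 121 did.

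A similar response did not require a similar level. Control means (with 0.5 added) were within 1.5-fold of each other in 185 members, more than 1.5 times higher in Beach in 71 and more than 1.5 times higher in Inland in 19. In the treated groups the corresponding numbers were 171, 85 and 19. In 150 members the genotypes were within 1.5-fold at both levels. In 56 members Beach was more than 1.5 times higher both with and without salt, and in 13 members Inland was. The increase in CPM, which depends on both the control level and the fold change, was larger in Beach in 203 members. The ratio of the Beach to the Inland increase had a median of 1.32 (range 0.254 to 9.16) and was within 1.5-fold in 142.

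Beach controls were the higher ones in 199 members (72.4%), against 59.9% of all genes tested. After TMM these shares were 65.5% and 50.0%. By edgeR's quasi-likelihood test under the same limits, 34 of 266 members differed between the controls, 29 higher in Beach and 5 higher in Inland, against 6.35% of all genes. Between the treated groups 45 of 266 differed, 40 higher in Beach and 5 higher in Inland, against 10.3% of all genes. With the fdr as the only limit, 96 members passed between controls and 137 between treated plants, against 25.9% and 37.5% of all genes. The rule sets a limit of 8-fold on the control ratio and a minimum on the level, so these shares are not compared further. All reads were placed on common bean genes, and the part of sequence differences between the genotypes in these values was not tested.

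**Figure D4:**
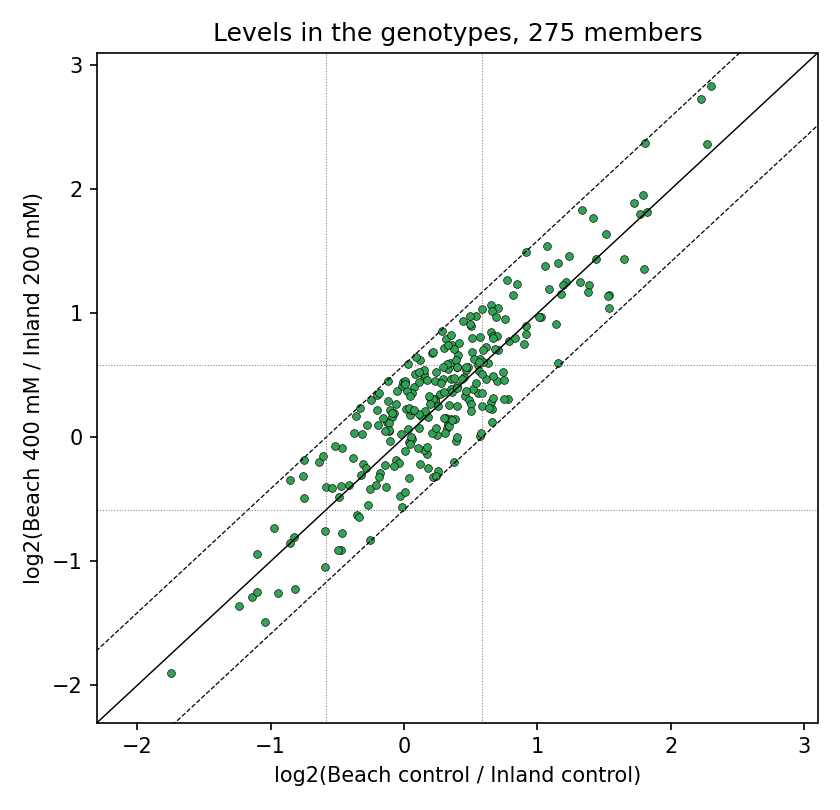
Log2 ratio of Beach to Inland in the treated groups (vertical axis) against that in the control groups (horizontal axis), each mean with 0.5 CPM added, for the 275 members. The solid line marks equal responses, the dashed lines the 1.5-fold window and the dotted lines 1.5-fold in level; 150 members lie in the central square, 56 above and to the right of it and 13 below and to the left.

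Among the 237 members with enough counts and no overlap, the 2 with the highest and the 2 with the lowest ratio of Beach to Inland controls are given next; over all 275 the ratio ran from 0.298 to 4.93, and Phvul.001G039700 and Phvul.004G138300 (4.93 and 4.83) were above, and Phvul.007G239800 and Phvul.008G143500 (0.298 and 0.424) below, those shown. These 4 are named because of their values. Phvul.003G154800 went from 11.8, 2.45 and 6.93 CPM to 48.7, 45.6 and 62.5 in Beach and from 0.763, 1.45 and 1.14 CPM to 5.35, 9.90 and 7.16 in Inland. No Beach library overlapped the Inland libraries of the same condition, and the fitted log2 ratio of Beach to Inland was 2.58 (SE 0.51, edgeR fdr = 0.00386) in controls and 2.85 (SE 0.40, edgeR fdr = 0.000394) in treated plants. Phvul.001G173300, with a log2 ratio of 1.98 (SE 0.46, edgeR fdr = 0.00983) in controls and 1.93 (SE 0.41, edgeR fdr = 0.00410) in treated plants, had the next highest control ratio among these 237. In the opposite direction, Phvul.006G166100 stood at 4.57, 2.67 and 2.21 CPM in Beach control and 5.84, 8.17 and 8.61 in Inland control, and at 6.45, 8.59 and 7.60 in Beach treatment and 19.3, 16.9 and 21.1 in Inland treatment. Its treated Beach libraries were at the level of the untreated Inland libraries. Phvul.003G268600 had a mean of 11.4 ± 2.58 CPM in Beach control and 25.1 ± 15.3 in Inland control (SD, n = 3), but Inland control replicate 1 (7.51 CPM) lay below all Beach control libraries, and the control difference did not pass (edgeR fdr = 0.0920).

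Because all 12 libraries were used to choose the members, the equality of the responses was read in libraries that had no part in the choice. The rule was applied to the libraries of 2 replicate numbers, and the genes it chose were measured in the 4 libraries of the remaining number. The numbers here only name libraries. With replicates 1, 2 and 3 held out in turn, 280, 237 and 264 genes were chosen, of which 218, 190 and 219 were among the 275, and 126 members were chosen all 3 times.

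In the held-out libraries the median log2 response of these genes was 1.32, 1.68 and 1.61 in Beach and 1.26, 1.44 and 1.38 in Inland, against 1.56, 1.498 and 1.51 (Beach) and 1.43, 1.38 and 1.43 (Inland) in the libraries that chose them. Over all genes the held-out medians were between -0.06 and 0.11. The response was upward in both genotypes in 275 of 280, 228 of 237 and 262 of 264 genes, and the share of all genes is not given for this count. It was at least 2-fold in both in 154, 167 and 196 genes (55.0%, 70.5% and 74.2%), against 2.60% to 3.09% of all genes. In libraries not used for the choice, a rise of 2-fold in both genotypes was thus more common among the chosen genes than among all genes. Many of the chosen genes did not reach 2-fold again.

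The ratio of the responses had a log2 median of -0.02, 0.25 and 0.18 in the held-out libraries. Its SD over genes was 0.69, 0.74 and 0.64, against 0.30, 0.28 and 0.30 in the libraries that chose. The rule bounds the ratio in the libraries that chose, where each mean also rests on more libraries. A wider SD in the held-out libraries was therefore fixed in advance, and nothing is read from it. The ratio lay within 1.5-fold in 169 of 280, 134 of 237 and 182 of 264 genes (60.4%, 56.5% and 68.9%). Over all genes it lay within 1.5-fold in 73.97% to 77.99%, a higher share than among the chosen genes each time. The held-out shares therefore do not show that similar responses were more common in the chosen genes than in all genes. Among the chosen genes the ratio was past 2-fold towards Beach in 22, 39 and 30 genes and past 2-fold towards Inland in 16, 8 and 3. All 3 parts of the choice (2-fold in both genotypes and a ratio within 1.5-fold) were met again by 36.4%, 46.8% and 56.1% of the genes. For comparison, genes chosen in the same way but with a Beach response more than 1.5 times the Inland one had held-out medians of 0.98, 0.94 and 1.13, and 31.5%, 23.8% and 20.1% of them were within 1.5-fold. Each held-out reading rests on 1 library per group, and no test was made of it.

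**Figure D5:**
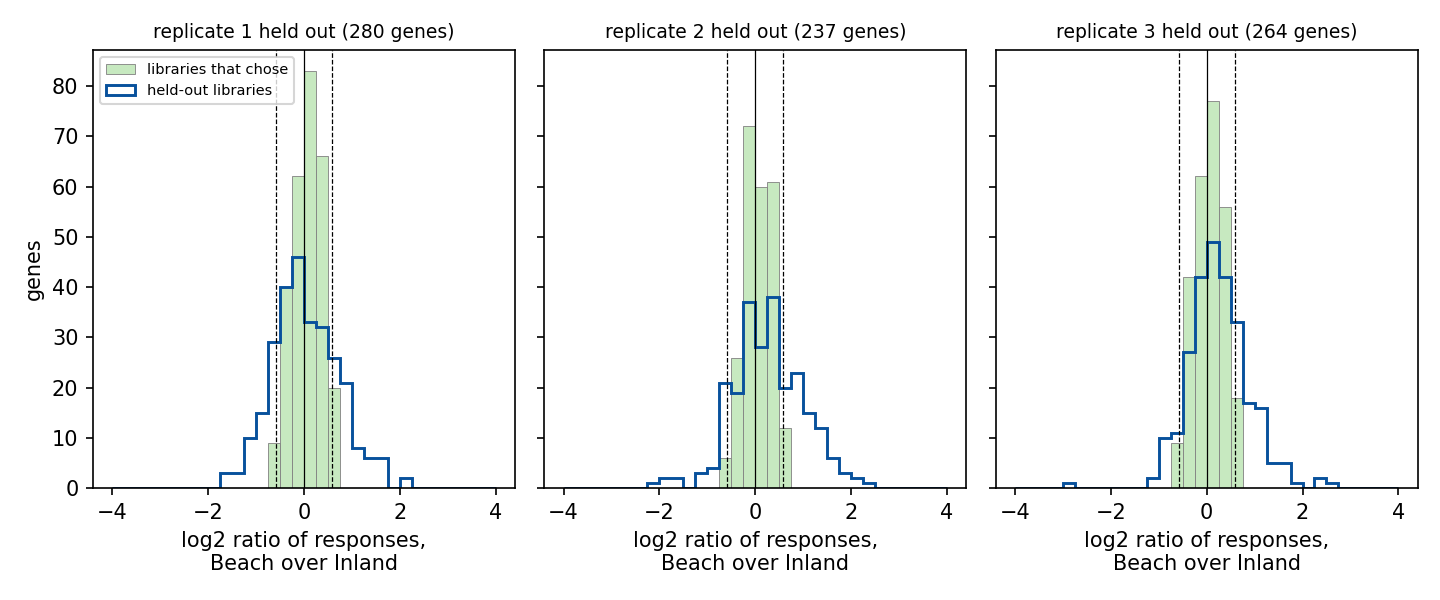
Log2 ratio of the Beach to the Inland response of genes chosen without one replicate number, in the libraries that chose them (filled bars) and in the 4 held-out libraries (blue outline), as numbers of genes in bins of 0.25. Dashed lines mark 1.5-fold either way; the filled bars end near the lines by construction (bins straddle them), and the outlines centre at -0.02, 0.25 and 0.18 with an SD of 0.64 to 0.74.

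Libraries differed in how far they carried the members as a group. On the log2 scale, the median deviation of the members from the mean of their own group was highest in Beach control replicate 1 (0.12) and lowest in Beach control replicate 3 (-0.10), while over all genes tested these libraries lay at 0.03 and -0.01. Replicate 1 was the highest Beach control library in 158 members (57.5%), against 47.2% of all genes. In the treated groups replicate 2 was the highest library in 137 members in Beach (49.8%, against 29.1% of all genes) and in 139 in Inland (50.5%, against 35.6%). Held-out replicate 1 gave the lowest median response in both genotypes, and held-out replicate 2 the highest. The median SD of log2 values between replicates was 0.25 in the Beach controls against 0.16 for all genes, 0.16 against 0.10 in treated Beach, 0.18 against 0.11 in the Inland controls and 0.18 against 0.09 in treated Inland.

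The member with the widest spread was Phvul.004G138300, and its inclusion rested on single libraries. It had 4.19, 0.667 and 4.09 CPM in Beach control and 2.02, 33.0 and 26.4 in Beach treatment. In Inland it had 0.294, 0.296 and 0.0762 CPM in control and 0.246, 10.3 and 0.169 in treatment, so replicate 2 was the only treated Inland library above the controls. Its difference of log2 fold changes had a 95% interval of -6.32 to 4.06. Treated and control libraries also overlapped in Phvul.006G197200, Phvul.007G239800, Phvul.009G062600 and Phvul.010G012700. The overlap was in Inland for Phvul.006G197200 and Phvul.009G062600, in Beach for Phvul.010G012700 and in both genotypes for Phvul.007G239800. Only Phvul.009G164000 had a library without counts (Beach control replicate 1).

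Some members carried neighbouring identifiers. By the numbering of the identifiers, 17 members (6.18%) fell into 8 runs in which each identifier followed the previous one, 7 of them pairs and 1 a run of 3. The run of 3 was Phvul.001G124600, Phvul.001G124700 and Phvul.001G124800, with responses of 2.22-, 3.23- and 2.97-fold in Beach and 2.54-, 2.71- and 2.83-fold in Inland, and with Beach controls 1.47, 1.27 and 1.48 times the Inland ones. The pair Phvul.006G124800 and Phvul.006G124900 was nearly identical in its values, with responses of 3.382- and 3.488-fold in Beach and 3.44- and 3.65-fold in Inland and control ratios of 2.26 and 2.49. The pair Phvul.006G166000 and Phvul.006G166100 had responses of 4.62- and 2.21-fold in Beach and 3.88- and 2.44-fold in Inland. Its control ratios of 2.23 and 0.454 were on opposite sides. The rule requires every member to rise in both genotypes, so nothing is read from a rise that neighbours share. Where neighbours are near-identical copies, only reads that align to 1 of them were counted, and the counts of each are then uncertain. By the chromosome number in the identifier, 47 members (17.1%) were on chromosome 3, which holds 11.7% of all genes tested. Chromosome 4 held 8.73% of the members against 5.58% of genes tested, and chromosome 5 held 9.45% against 6.58%. The share was furthest below that of genes tested, relative to it, on chromosomes 2 (8.36% against 13.0%), 10 (3.27% against 5.73%) and 11 (3.64% against 6.96%). No test was made of this.

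The limits of the rule fall within a continuous range. Just inside the minimum response were Phvul.008G260500 and Phvul.007G165100 in Beach (2.004- and 2.007-fold) and Phvul.008G144000 and Phvul.011G072400 in Inland (2.003- and 2.004-fold). Just outside were Phvul.002G143900 and Phvul.002G315600 in Beach (1.997- and 1.990-fold) and Phvul.006G065100 and Phvul.007G042400 in Inland (1.996- and 1.995-fold). For the ratio of responses towards Beach, Phvul.010G107400 and Phvul.003G166000 (1.499 and 1.493) were inside and Phvul.007G228700 and Phvul.001G226900 (1.504 and 1.512) outside. Towards Inland, Phvul.004G119400 and Phvul.011G051500 (1.491 and 1.480 times the Beach response) were inside and Phvul.005G171800 and Phvul.003G020800 (1.509 and 1.534) outside. These gaps are far smaller than the SE of the members.

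The members can be set beside the 148 genes with the larger Beach response. The Inland responses had medians of 2.66-fold in the members and 2.73-fold in the 148, while the Beach medians were 2.91-fold and 6.64-fold, as the rule requires. The median ratio of Beach to Inland controls was 1.22 in the members and 0.962 in the 148. In CPM, the median Beach control level was 9.81 in the members and 4.71 in the 148, and the median Beach treatment level 34.0 and 42.7. The ratio of responses contains the control ratio, so a gene with a high Beach control is less likely to fall among the 148, and these values are given as a description with no test.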

How the data were processed

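Root RNA of 2 genotypes was sequenced as 125-base single reads in 12 libraries, 3 per group. The authors trimmed reads with Trimmomatic 0.36, aligned them with STAR to common bean genome Pvulgaris_218_v1.0 and counted uniquely aligned reads per gene with featureCounts; the deposited value is a count, without normalization. Versions of STAR and featureCounts are not given in the sources used here.

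The members and the lists were chosen with earlier results of these data known. Membership used CPM on library totals. Every gene exceeding 5 CPM in 3 or more libraries was tested with edgeR 4.0.16 (TMM, quasi-likelihood, Benjamini-Hochberg fdr) in R 4.3.3, on 6 libraries within a genotype and on 12 between genotypes. Calls required an fdr no higher than 0.05 together with a 2-fold fitted change. Standard errors and 95% intervals came from the same fit. Named genes followed a rule (largest responses, highest levels, ratios nearest 1, widest offsets, widest spread, nearest to the limits), and exceptions are stated. Lists by function, promoter motifs and marker checks were planned and not made, since no annotation was used here. The fits were tested on simulated data. No library was a copy of another (chi-square over degrees of freedom 10.7 to 54.6 between replicates). A count of 0 allows up to 3 counts, by counting error alone, since reads had no molecular identifiers. DESeq2 1.42.0, edgeR's exact test, other scalings, filters, limits and left-out libraries were alternatives. Figures were drawn with matplotlib 3.10.9.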

Additional observations from a re-analysis of the deposited data

Results flagged for a closer look

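Although the responses of all members were within 1.5-fold in group means, 11 of them had responses that differed between the genotypes by edgeR's test at an fdr of 0.05 when no minimum was set on the fold change. This is 11 of the 266 tested, against 13.0% of all genes, and the members were chosen on the ratio of these responses. Their differences of log2 fold changes ran from 0.41 to 0.70 (edgeR quasi-likelihood fdr from 0.00346 to 0.0480), all with the larger response in Beach, and their median SE was 0.13 against 0.24 for the members tested. With library totals in place of TMM 8 members passed, against 16.0% of all genes, 3 of them with the larger response in Inland. Among the genes named above, Phvul.005G034800 was one of the 11, with a difference of 0.47 (edgeR quasi-likelihood fdr = 0.0262) and all treated Beach libraries above all treated Inland libraries. The dose differed along with the genotype.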

How the results depend on the processing

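The number of genes meeting the rule, 275, became 175 with a window narrower by 0.25-fold and 76 with a minimum rise of 3-fold. It was 350 with a window of 2-fold, 246 on TMM-scaled CPM (233 of them members) and 256 to 280 with another offset. With each library left out it was 255 to 288, and 85.1% to 95.6% of the members were kept. Members with the larger response in Beach numbered 138 to 183 with a library left out and 159 to 188 otherwise. Counts of members called higher stayed within 245 to 274 in Beach, 219 to 257 in Inland and 214 to 257 in both genotypes under all alternatives, the replicate block included (256, 227 and 223). Members called for a difference of responses, 0 as reported, were 1 with DESeq2 (Phvul.008G073100), 11 without a minimum on fold change, and 0 to 1 with a library left out. Without that minimum, members that differed between controls went from 34 to 96 (25.9% of all genes passed) and between treated plants from 45 to 137 (37.5%). With a library left out these counts were 29 to 36 and 38 to 49. Members with an interval of the difference above 0 went from 37 to 20 with library totals in place of TMM, those below 0 from 7 to 16, and those with an interval within 1.5-fold from 49 to 56. This alternative for the intervals was added after the data were seen. For the 22 named genes, 1756 alternative values moved by less than the SD between replicates, 22 moved by more, and no called value changed sign. Replicate numbers did not pair the libraries: 3 of 18 correlations between the deviations of same-numbered libraries were above 0.1 (range -0.166 to 0.143). Low counts limit members with few counts in a control group, where the added 0.5 CPM sets the ratio. edgeR's exact test has no form for the difference of responses and was not run for it.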
